A study of Caenorhabditis elegans with 9 samples.

Results

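Chromosome X is the sex chromosome of Caenorhabditis elegans, present as a pair in hermaphrodites and as a single copy in males. The 18 segments described here are the whole of it, in order along the chromosome, out of 104 segments into which the deposited table divides the genome. They were chosen by their place in the table: 17 are 1000000 bases long, segment 18 is 718942 bases long, and together they make up 17.7% of the genome length. Segment 1 covers bases 1 to 1000000, segment 3 bases 2000001 to 3000000, and segment 18 bases 17000001 to 17718942. The table names neither chromosomes nor a genome build. Segments were placed in chromosome order by the short last segment of each chromosome, and every gene of the WBcel235 annotation (Ensembl release 115) ends within the lengths obtained.

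The libraries hold small RNAs of whole adult hermaphrodites, 3 libraries for each of 3 genotypes. They were prg-1(∆PAZ-domain), called PAZ-deletion here, prg-1(Rnase-dead), called RNase-dead, and wild type. The product of prg-1 is the C. elegans Piwi protein, the partner of piRNAs. By its label the first mutant lacks the PAZ domain, the pocket in which an Argonaute anchors one end of its guide, and the other lacks the nuclease activity that cuts a target. The level of the prg-1 transcript is not among the tables used here, so the genotypes were not checked against it. All animals were kept at 25 °C and collected 24 h after the middle of the last larval stage, with 20 to 30 animals for a genotype. The labels name no separate cultures for the libraries of a genotype, and p-values therefore reflect library-to-library spread that may be technical.

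Small RNAs of several kinds can map to X. MicroRNAs are cut from hairpin transcripts and repress messenger RNAs, piRNAs guide the PRG-1 protein to transcripts of the germline, and secondary siRNAs are then copied from targeted transcripts by RNA-dependent RNA polymerases. In C. elegans nearly all piRNA genes lie on chromosome IV, and X is largely silent in the germline. The annotation places 162 of 15363 piRNA genes on X (1.05%), but 74 of 261 miRNA genes (28.4%), 276 of 634 tRNA genes (43.5%), 2731 of 19985 protein-coding genes (13.7%) and no rRNA gene. Reads were counted per segment and not per gene or kind of small RNA, so no read can be credited to an annotated gene. In RNA from whole animals, fewer cells of a type and less RNA per cell cannot be told apart.

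Libraries held 1022428 to 3121968 genome-mapped reads, and an X segment held 364 to 114751 reads in a library. The smallest count, in segment 11 of PAZ-deletion replicate 1, stood for 356 reads per 1000000 genome-mapped reads (RPM), with a 95% exact binomial interval of 320.4 to 395 that covers counting error only. Levels below are RPM, and a segment was called where edgeR's quasi-likelihood test, fitted on all 104 segments, gave a false discovery rate (FDR) under 0.05. Wild type replicate 2 stood apart, with the lowest of the 3 wild-type values in 18 of 18 X segments. The segment at the end of chromosome I, where rRNA genes are annotated, took 4.31%, 4.07% and 5.56% of genome-mapped reads in PAZ-deletion replicates 1, 2 and 3 and 1.64%, 2.62% and 2.55% in RNase-dead, against 12.2%, 14.3% and 3.83% in wild type.

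A few segments held most X reads in every library. Segment 3 was the most abundant in each genotype. It contains 9 miRNA genes, among them mir-34, mir-81 and mir-82, at bases 2969752 to 2969848, 2431072 to 2431179 and 2435258 to 2435354. The microRNAs mir-81 and mir-82 belong to the family of the fly microRNA bantam, and mir-34 belongs to a family that p53 induces in mammals. Segment 3 had 60285, 54239 and 51949.6 RPM in PAZ-deletion libraries, 26964, 30087 and 29834 RPM in RNase-dead libraries, and 33588, 27271 and 29261 RPM in wild-type libraries. All PAZ-deletion values lay above every other value, while RNase-dead and wild type overlapped.

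Segment 9 came next, and it holds 51 of the 276 tRNA genes on X beside 5 miRNA genes, one of them mir-237, a relative of the developmental timing microRNA lin-4. Its levels were 26444, 21133 and 18839 RPM in PAZ-deletion, 14231, 13422 and 11991 RPM in RNase-dead, and 17768, 9806 and 15868 RPM in wild type. The lowest PAZ-deletion library lay just above the highest wild-type library. Segment 17, which contains mir-84 of the let-7 family and 32 tRNA genes, had 9238, 9309.6 and 9032 RPM in PAZ-deletion, 6106, 5892 and 6415 RPM in RNase-dead, and 5513, 4236 and 5848 RPM in wild type. Its 3 genotypes did not overlap. Segment 10, with mir-49 as its lone miRNA gene and 20 tRNA genes, had 12582, 10642 and 8000 RPM in PAZ-deletion, 4750.2, 5104 and 5289 RPM in RNase-dead, and 4717, 3445 and 5351 RPM in wild type.

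The other 14 segments had genotype means of 439.7 to 8152 RPM. Segment 11, with no annotated miRNA gene, was the lowest in all 3 genotypes, at 439.7 ± 96.6 RPM in PAZ-deletion, 645 ± 31.8 RPM in RNase-dead and 566 ± 118 RPM in wild type (n = 3, SD). The ratio of the highest to the lowest segment mean was 126 in PAZ-deletion, 44.9 in RNase-dead and 53.0 in wild type. Replicates of a segment had a median coefficient of variation of 10.01% in PAZ-deletion, 5.35% in RNase-dead and 18.3% in wild type. The plot of levels along the chromosome shows the peak at segment 3 in all libraries and the drop of several segments in PAZ-deletion.

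**Figure D1:**
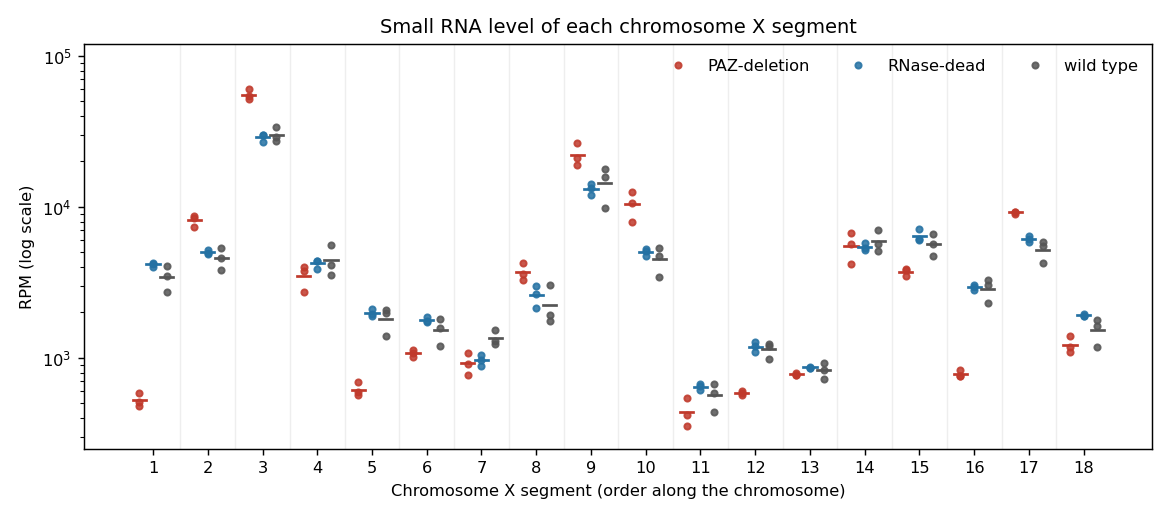
Level of each chromosome X segment (x axis, in order along the chromosome) in RPM on a log y axis, with 1 point per library and a line at the mean of the 3 libraries of PAZ-deletion (left, red), RNase-dead (middle, blue) and wild type (right, grey). In segment 1 the PAZ-deletion points lie at 483 to 584 RPM, below all others.

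Over the whole chromosome, the X total in RPM was higher in every PAZ-deletion library than in any library of the other genotypes. The X total was 141592, 125760 and 118958 RPM in PAZ-deletion, 90393, 94852 and 95335 RPM in RNase-dead, and 100685, 75921 and 99976 RPM in wild type. As a share of genome-mapped reads this was 12.9 ± 1.16%, 9.35 ± 0.272% and 9.22 ± 1.41% (n = 3, SD) for PAZ-deletion, RNase-dead and wild type, each below the 17.7% that X takes of the genome length. PAZ-deletion was higher than wild type by a log2 difference of 0.49 ± 0.15 (SE) and higher than RNase-dead by 0.46 ± 0.08, without overlap in either pair. Both pairs had a two-sided exact permutation p of 0.1, and a comparison of 3 with 3 libraries can reach no lower value. RNase-dead and wild type overlapped, with a log2 difference of 0.03 ± 0.14 (SE, exact permutation p = 1), which was -0.10 without wild type replicate 2. The same wild-type libraries enter both comparisons with wild type, and the same PAZ-deletion libraries both comparisons of that mutant.

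Over the 3 genotypes together, the F statistic for X had an exact permutation p of 0.0357, and 0.055 after Benjamini-Hochberg adjustment over 6 chromosomes and mitochondrial DNA, which did not pass 0.05. The log2 difference of PAZ-deletion from wild type was 0.46 for chromosome III, 0.48 for mitochondrial DNA, 0.17 for IV, -0.10 for V, -0.14 for II and -0.46 for I. The X value was thus close to that of chromosome III, and the difference between chromosomes was not tested. In the same F permutation test, the adjusted p was 0.0125 for chromosome III, 0.0125 for mitochondrial DNA and 0.0417 for I. These passed 0.05, while II, IV and V did not.

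Segment 3 made up much of the difference in the total. Without it, the X total was 81307, 71521 and 67009 RPM in PAZ-deletion, 63429.5, 64765 and 65501 RPM in RNase-dead, and 67098, 48651 and 70715 RPM in wild type. PAZ-deletion then overlapped wild type, with a log2 difference of 0.25 ± 0.19 (SE, exact permutation p = 0.3), and the F test over the 3 genotypes gave an exact permutation p of 0.364. All PAZ-deletion libraries still lay above every RNase-dead library, with a log2 difference of 0.18 ± 0.08 (SE, exact permutation p = 0.1).

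**Figure D2:**
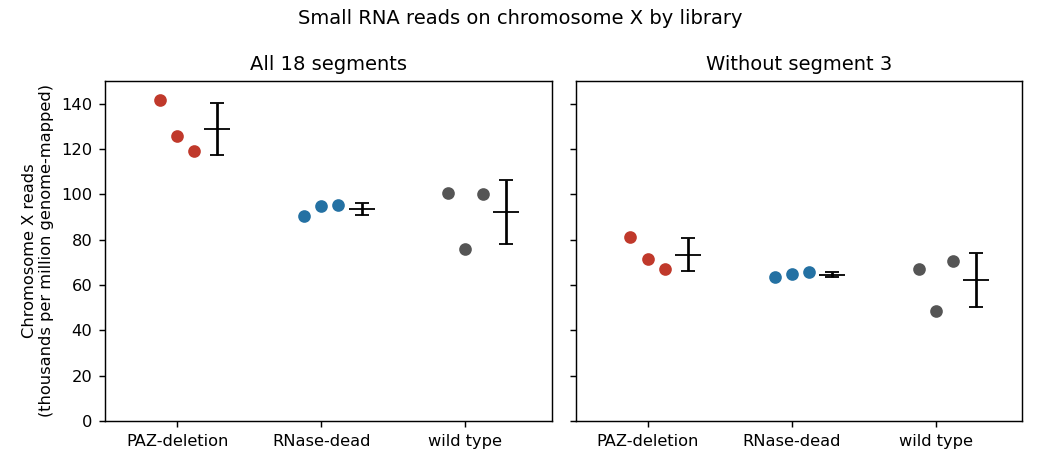
Chromosome X reads in units of 1000 RPM (y axis), for all 18 segments (left) and without segment 3 (right), with 1 point per library of each genotype and a line with bars for the mean ± SD of 3 libraries. The PAZ-deletion libraries sit at 118958 to 141592 RPM for all segments, above all others. Without segment 3 they overlap wild type and lie above RNase-dead.

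Whether the loss of the PAZ domain alters small RNA levels along X was asked segment by segment. In PAZ-deletion 6 X segments rose and 8 fell relative to wild type, and 4 were not called. Over all 104 segments 45.2% were called, 17.3% higher and 27.9% lower, against 14 of the 18 X segments. The median log2 fold change was -0.33 over the X segments and -0.13 over all segments. Of the 6 segments of the genome with the lowest log2 fold changes, 4 were on X, and so were 4 of the 6 with the highest. X holds 18 of the 104 segments, and the cut at 6 was not set in advance. The next X segments ranked 18 from the lowest (segment 15) and 9 from the highest (segment 8). The SD of the log2 fold change between segments was 1.05 on X and 0.413 to 0.570 on the 5 autosomes, a difference that was not tested. By the libraries themselves, 6 X segments were higher and 7 lower in PAZ-deletion with no overlap with wild type, where 41.3% of all 104 segments did not overlap.

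Segment 1 fell furthest of all 104 segments. It had 483, 511 and 584 RPM in PAZ-deletion, against 3495, 2748 and 4049 RPM in wild type, with 4011, 4206 and 4260.3 RPM in RNase-dead. Its PAZ-deletion mean of 526 ± 52.1 RPM was 6.52-fold lower than the wild-type mean of 3431 ± 653 RPM (n = 3, SD), or -2.70 ± 0.19 as a log2 fold change (SE; FDR 2.68e-37 in edgeR). The segment holds 130 protein-coding genes, 35 pseudogenes, the most on X, and 3 miRNA genes. Segment 2, with the next most pseudogenes (30), was called higher. The FDR of a segment rests largely on a spread pooled over all segments and is no measure of its own replicate spread.

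Segment 16 had the next lowest log2 fold change. It had 830.4, 764 and 763 RPM in PAZ-deletion, against 3051, 2307 and 3275 RPM in wild type, a log2 fold change of -1.87 ± 0.18 (SE; FDR 2.62e-21 in edgeR). Segment 5, which holds the miRNA genes mir-247 and mir-797, had 593, 688 and 569.9 RPM in PAZ-deletion, against 1979, 1399 and 2090.1 RPM in wild type. Its log2 fold change was -1.56 ± 0.17 (SE; FDR 3.17e-17 in edgeR). In segments 16 and 5 the highest PAZ-deletion library was below the lowest wild-type library.

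Segment 12, with 191 protein-coding genes the richest in them on X, had 584, 564 and 602 RPM in PAZ-deletion and 1192, 977 and 1245 RPM in wild type, a log2 fold change of -0.96 ± 0.16 (SE; FDR 2.05e-08 in edgeR). Segment 15 contains let-7, the microRNA that times the passage from larva to adult, annotated at bases 14743590 to 14745321. It had 3857, 3469.8 and 3799.8 RPM in PAZ-deletion, against 5720.2, 4744 and 6587 RPM in wild type, and its log2 fold change was -0.62. Segment 7 had 1076, 775 and 915 RPM in PAZ-deletion, against 1297, 1239 and 1528 RPM in wild type. Segment 6 had 1125, 1015 and 1078 RPM in PAZ-deletion, against 1587, 1203 and 1801 RPM in wild type. In segments 12, 15, 7 and 6 no PAZ-deletion library reached a wild-type value. Segment 6 lost its call without wild type replicate 3 (FDR 0.0512 in edgeR), and segment 7 lost it with TMM scaling (FDR 0.0584 in edgeR). Segment 11 was called lower with a log2 fold change of -0.36 (FDR 0.0216 in edgeR), although its libraries overlapped, at 356, 545 and 418 RPM in PAZ-deletion and 586, 439 and 673 RPM in wild type. That call was lost without PAZ-deletion replicate 1 or 3 or wild type replicate 1 or 3, with FDR values up to 0.210. It was also lost with TMM scaling (-0.23, FDR 0.157 in edgeR), with DESeq2 median-ratio scaling (FDR 0.101), with only these genotypes in the fit (FDR 0.0723 in edgeR) and under the replicate block (FDR 0.0613 in edgeR).

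The largest increase of all 104 segments was in segment 10, whose values are given above. Its PAZ-deletion mean of 10408 ± 2299.8 RPM was 2.31-fold the wild-type mean of 4504 ± 971 RPM (n = 3, SD), or 1.21 ± 0.17 as a log2 fold change (SE; FDR 1.95e-11 in edgeR). Segment 3 rose by a log2 fold change of 0.89 ± 0.24 (SE; FDR 0.00111 in edgeR) and segment 17 by 0.82 ± 0.16 (FDR 8.68e-06 in edgeR). Segment 2 holds 13 miRNA genes, the most on X, 12 of them between bases 1798928 and 1880038. Its levels were 7307, 8491 and 8659 RPM in PAZ-deletion, against 4616, 3814 and 5379 RPM in wild type, a log2 fold change of 0.82. Segment 8, with mir-240 and mir-786, had 4264, 3261 and 3601 RPM in PAZ-deletion and 1935, 1768 and 3022 RPM in wild type, a log2 fold change of 0.72. Segment 9 rose by 0.61 on the log2 scale (FDR 0.00353 in edgeR), and without wild type replicate 2 its value was 0.40 and it was not called (FDR 0.0564 in edgeR).

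The 4 segments not called were 4, 13, 14 and 18, whose log2 values were -0.34, -0.09, -0.10 and -0.33. Segment 14, which contains the cluster of mir-54, mir-55 and mir-56, had 6679, 5685 and 4214 RPM in PAZ-deletion and 7058, 5093 and 5671 RPM in wild type. Segment 13 was close to level in all 9 libraries, at 797, 772 and 774 RPM in PAZ-deletion and 859, 860.2 and 872 RPM in RNase-dead, against 837, 720.5 and 930.4 RPM in wild type. Both segments 4 and 18 were called lower at -0.48 without wild type replicate 2, and segment 4 also at -0.45 without PAZ-deletion replicate 1. With the last segment of chromosome I left out of the denominator, they were called lower at -0.41 and -0.40 (FDR 0.0289 and 0.0165 in edgeR). DESeq2 median-ratio scaling called segment 18 lower at -0.20 (FDR 0.0221) but not segment 4 (FDR 0.440). TMM scaling called neither (FDR 0.396 and 0.0774 in edgeR).

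**Figure D3:**
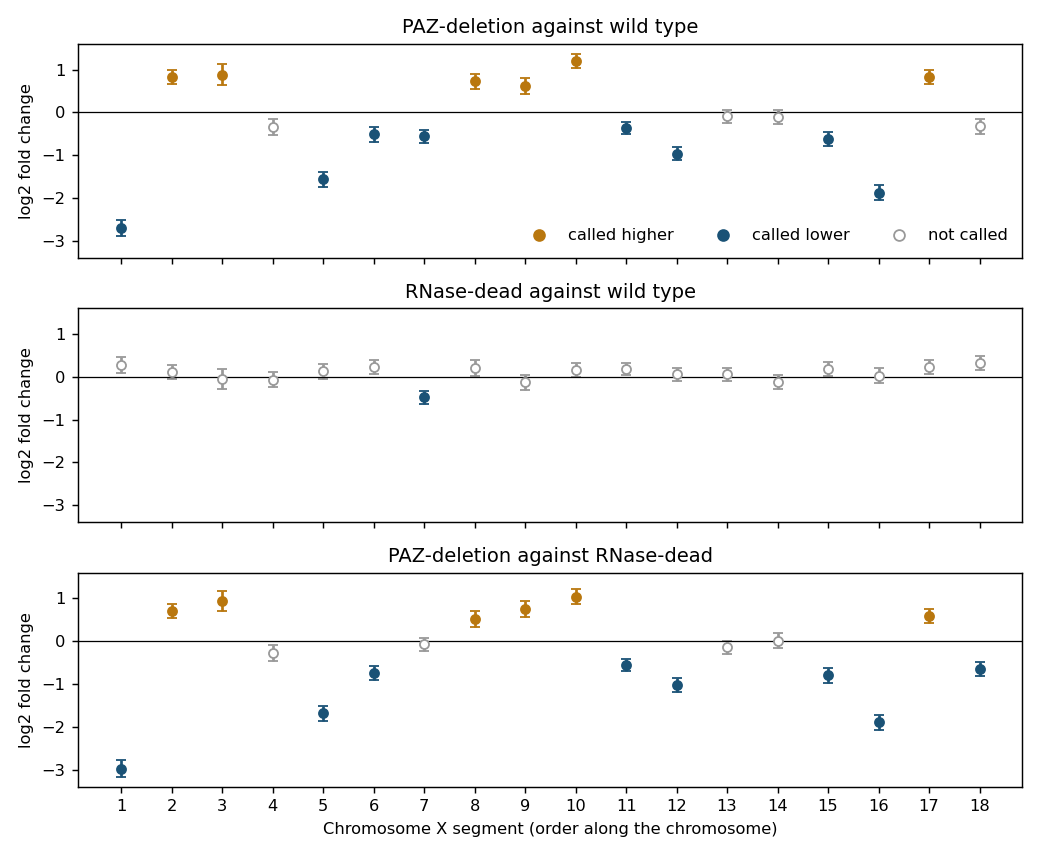
Log2 fold change in RPM (y axis) of each chromosome X segment (x axis) for PAZ-deletion against wild type (top), RNase-dead against wild type (middle) and PAZ-deletion against RNase-dead (bottom), with bars for the SE and filled points for segments called at an edgeR FDR under 0.05. In the top panel values run from -2.70 at segment 1 to 1.21 at segment 10, and in the middle panel from -0.48 to 0.32.

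The makeup of X, as the share of X reads in each segment, separates the distribution along the chromosome from its total. Segment 3 took 42.6%, 43.1% and 43.7% of X reads in PAZ-deletion, 29.8%, 31.7% and 31.3% in RNase-dead, and 33.4%, 35.9% and 29.3% in wild type. The 4 segments highest in mean RPM over all 9 libraries were 3, 9, 17 and 10. Together they held 75.4 ± 1.45% in PAZ-deletion, 57.1 ± 0.796% in RNase-dead and 58.8 ± 2.41% in wild type (n = 3, SD). PAZ-deletion lay above both other genotypes in every library (exact permutation p = 0.1 for each pair). The PAZ-deletion libraries took part in choosing these 4 segments, so this gap is partly built in and the p is no fair test of it. Segment 10 ranked 3 in PAZ-deletion but 6 in RNase-dead and 7 in wild type. In PAZ-deletion 9 of the 18 segments averaged under 1% of X reads, against 2 in RNase-dead and 2 in wild type.

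Shares were tested in an edgeR fit of 103 segments, each scaled to the total of its own chromosome. In PAZ-deletion 4 X segments rose and 12 fell in share relative to wild type, where 53.4% of all 103 segments were called, 16.5% higher and 36.9% lower. Segment 1 took 0.413 ± 0.0751% of X reads in PAZ-deletion and 3.71 ± 0.300% in wild type (n = 3, SD), or -3.17 ± 0.15 as a log2 fold change (SE; FDR 1.09e-09 in edgeR). Segments 16 and 5 took 0.612 ± 0.0277% and 0.482 ± 0.0642% in PAZ-deletion, against 3.11 ± 0.139% and 1.97 ± 0.124% in wild type. Their log2 fold changes in share were -2.35 and -2.03. Of the segments not called in RPM, 4, 13, 14 and 18 all fell in share, by 0.82, 0.57, 0.60 and 0.78 on the log2 scale. A segment level in RPM has to fall in share where the X total is higher. The falls of segments 13 and 14 therefore largely restate the higher X total of PAZ-deletion, by 0.49 on the log2 scale. Those of segments 4 and 18 do so in part, as their RPM values were -0.34 and -0.33. With chromosome totals taken without the most abundant segment, segments 13 and 14 were at -0.33 and -0.37. Segments 4 and 18 were then at -0.57 and -0.54, and all 4 stayed called lower (FDR 0.00432 to 0.0251 in edgeR).

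Segment 10 rose in share by a log2 fold change of 0.72 ± 0.13 (SE; FDR 7.49e-04 in edgeR), with 8.02 ± 1.14% of X reads in PAZ-deletion and 4.86 ± 0.435% in wild type (n = 3, SD). The share of segment 3 rose by 0.39 (FDR 0.0370 in edgeR), that of segment 2 by 0.36 (FDR 0.0476 in edgeR) and that of segment 17 by 0.35 (FDR 0.0233 in edgeR). These 3 calls did not hold in every fit. That of segment 3 was lost in 7 of the 9 fits that left out a library, that of segment 2 in 7 of 9 and that of segment 17 in 2 of 9. For segments 3 and 2 these include the fits without an RNase-dead library, where the values stayed at 0.39 and 0.36. Such fits change little but the pooled spread. The call of segment 3 was also lost under the replicate block (FDR 0.0740 in edgeR). Segments 8 and 9, called higher in RPM, were not called in share, at 0.25 and 0.14 on the log2 scale. With chromosome totals taken without the most abundant segment, segment 9 was called higher at 0.38 (FDR 0.0274 in edgeR), and segments 2 and 17 were at 0.60 and 0.59.

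Among the segments with many miRNA genes, segment 2 took 6.40 ± 1.10% in PAZ-deletion, 5.34 ± 0.164% in RNase-dead and 4.996 ± 0.399% in wild type (n = 3, SD). Segment 14 took 4.26 ± 0.629% in PAZ-deletion, 5.84 ± 0.256% in RNase-dead and 6.46 ± 0.702% in wild type. The let-7 segment, segment 15, took 2.89 ± 0.262% in PAZ-deletion, 6.89 ± 0.527% in RNase-dead and 6.17 ± 0.458% in wild type. Segments 14 and 15 were lower in all PAZ-deletion libraries than in any other library, while the genotypes overlapped in segment 2.

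Segment 9 took 17.1 ± 1.44% in PAZ-deletion, 14.2 ± 1.58% in RNase-dead and 15.5 ± 2.39% in wild type. Segment 17 took 7.17 ± 0.570% in PAZ-deletion, 6.57 ± 0.306% in RNase-dead and 5.63 ± 0.193% in wild type. Segment 4 took 2.72 ± 0.510% in PAZ-deletion, 4.52 ± 0.203% in RNase-dead and 4.79 ± 0.778% in wild type. Segment 4 was lower in all PAZ-deletion libraries than in any other library. Segment 6 took 0.836 ± 0.0610% in PAZ-deletion, 1.91 ± 0.0727% in RNase-dead and 1.65 ± 0.128% in wild type. Segment 12 took 0.456 ± 0.0472% in PAZ-deletion, 1.27 ± 0.0745% in RNase-dead and 1.24 ± 0.0514% in wild type. Segment 18 took 0.960 ± 0.199% in PAZ-deletion, 2.04 ± 0.0421% in RNase-dead and 1.65 ± 0.112% in wild type. Each of these last 3 was lower in all PAZ-deletion libraries than in any other library. Segment 11 took 0.345 ± 0.0913% in PAZ-deletion, 0.690 ± 0.0398% in RNase-dead and 0.611 ± 0.0538% in wild type. Segment 13 took 0.609 ± 0.0439% in PAZ-deletion, 0.924 ± 0.0232% in RNase-dead and 0.904 ± 0.0634% in wild type. In segments 11 and 13, too, the PAZ-deletion libraries lay below all others.

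**Figure D4:**
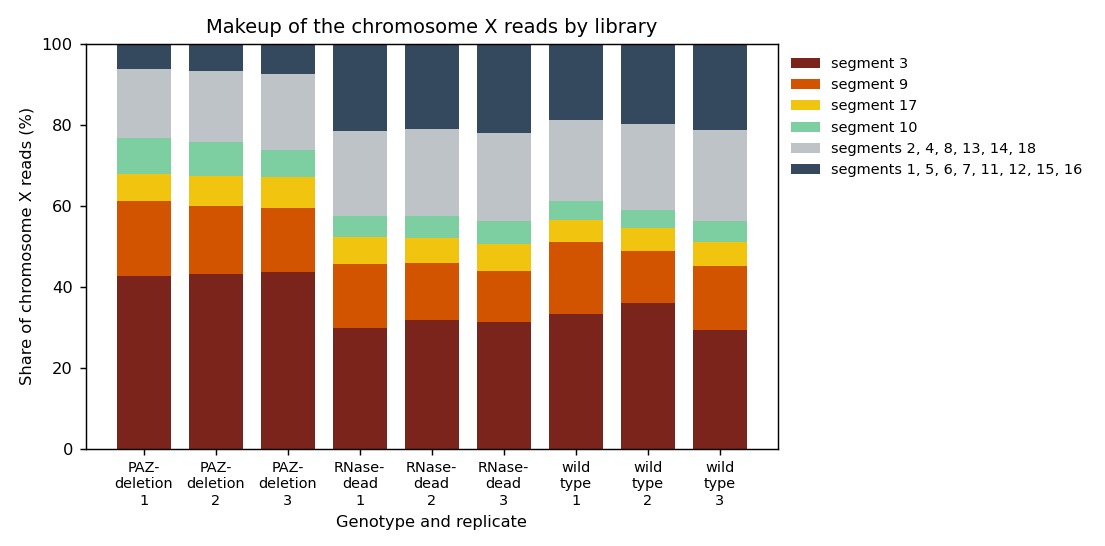
Share of chromosome X reads in percent (y axis) for each library (x axis), stacked from the bottom by segment 3, segment 9, segment 17, segment 10, the other 6 segments not called lower in PAZ-deletion, and on top the 8 segments called lower in RPM. The top block takes 6.29% to 7.34% in PAZ-deletion and 18.8% to 22.1% in the other 6 libraries. Its 8 segments were picked by their call against wild type in these same libraries, so a lower block in PAZ-deletion follows from the choice.

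Scaled to genome-mapped reads, the X segments of RNase-dead animals lay close to wild type. The test called 1 X segment lower, segment 7, and none higher, where 15.4% of all 104 segments were called, 11.5% higher and 3.85% lower. Without adjustment, 0 X segments were higher and 1 lower at p under 0.05. DESeq2, scaled to genome-mapped reads, also called 0 X segments higher and 1 lower, although it called more of all 104 segments than edgeR did. Segment 7 had 889.5, 1051 and 970.3 RPM in RNase-dead and 1297, 1239 and 1528 RPM in wild type, a log2 fold change of -0.48 ± 0.16 (SE; FDR 0.0394 in edgeR), and its groups did not overlap. The call was lost without any of the 3 RNase-dead libraries, with wild type replicate 1 left out, and with PAZ-deletion replicate 2 left out, with FDR values of 0.0616 to 0.254. It was also lost with TMM scaling, at -0.77 (FDR 0.0526 in edgeR), and with the replicate block (FDR 0.0571 in edgeR). Without wild type replicate 3, 4 X segments were called higher and 1 lower, and the share called over all 104 segments in that fit is not given here.

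The largest positive values, not called, were 0.32 ± 0.17 for segment 18 and 0.28 ± 0.18 for segment 1 (log2 fold change ± SE), and segment 9 was at -0.13 ± 0.18. The most abundant segments 3, 17 and 10 were at -0.05, 0.24 and 0.16, also not called. The median over the X segments was 0.12, and that over all 104 segments 0.29. With TMM scaling, segments 3 and 9 were at -0.34 and -0.40 (FDR 0.231 and 0.221 in edgeR). Segments 17 and 10 were then at -0.04 and -0.11, and none of these 4 was called. The RNase-dead libraries lay above all wild-type libraries in 2 X segments, 17 and 18, and below them in 1, whereas 59.6% of all 104 segments did not overlap, 55.8% being higher in RNase-dead. Segment 18 had 1633, 1182 and 1775 RPM in wild type, below the 1889 to 1943 RPM of RNase-dead. This difference between X and the other chromosomes was not tested. In share of X, segment 7 was again the one called, at 1.04 ± 0.0640% in RNase-dead and 1.48 ± 0.176% in wild type (n = 3, SD), or -0.52 as a log2 fold change (FDR 0.0353 in edgeR), where 3.88% of 103 segments were called, 0.971% higher and 2.91% lower. That call was lost without each RNase-dead library and without wild type replicate 2, with FDR values up to 0.164, and with the chromosome total taken without its most abundant segment (FDR 0.111 in edgeR).

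The mutants were also compared directly, with the same PAZ-deletion and RNase-dead libraries as above. In PAZ-deletion 6 X segments were higher and 8 lower than in RNase-dead, where 67.3% of all 104 segments were called, 13.5% higher and 53.8% lower. With DESeq2 median-ratio scaling 8 X segments were higher and 7 lower, and the share called over all 104 segments with it is not given here. By the libraries, 6 X segments were higher and 9 lower without overlap, where 76% of all segments did not overlap, 15.4% higher and 60.6% lower. The 6 higher segments were 2, 3, 8, 9, 10 and 17, with log2 fold changes of 0.52 for segment 8 to 1.04 ± 0.17 (SE; FDR 7.21e-09 in edgeR) for segment 10. The call of segment 8 was lost without PAZ-deletion replicate 1 or RNase-dead replicate 1 (FDR 0.0541 and 0.117 in edgeR). Segment 1, at 526 ± 52.1 RPM in PAZ-deletion and 4159 ± 131 RPM in RNase-dead (n = 3, SD), was 7.90-fold lower, with a log2 fold change of -2.98 ± 0.19 (SE; FDR 2.12e-43 in edgeR). Segment 16 had 830.4, 764 and 763 RPM in PAZ-deletion, against 2946, 2816 and 3025 RPM in RNase-dead, a log2 fold change of -1.90. Segment 5 had 593, 688 and 569.9 RPM in PAZ-deletion, against 1965, 1899 and 2105 RPM in RNase-dead, and its log2 fold change was -1.69. The highest PAZ-deletion library was below the lowest RNase-dead library in both segments. The other 5 lower segments were 6, 11, 12, 15 and 18, between -0.55 and -1.02. TMM scaling moved all 18 values up. Segment 11 then lost its call at -0.15 (FDR 0.383 in edgeR), as it did with DESeq2 median-ratio scaling (FDR 0.313), and segments 6, 12, 15 and 18 stayed called at -0.32, -0.61, -0.38 and -0.24. Among the higher segments, 2, 8, 9 and 17 were at 1.11, 0.94, 1.18 and 1.00 with TMM scaling. Segment 18 had 1096, 1175 and 1393 RPM in PAZ-deletion, against 1889, 1903 and 1943 RPM in RNase-dead. Segments 4, 7, 13 and 14 were not called, with values of -0.28, -0.08, -0.15 and 0.02. The direction of segments 7 and 13 changed with the scaling, and DESeq2 with median-ratio scaling called them higher at 0.35 and 0.26.

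In share of X, PAZ-deletion had 2 segments higher and 12 lower than RNase-dead, where 64.1% of 103 segments were called, 10.7% higher and 53.4% lower. With chromosome totals taken without the most abundant segment, 4 X segments were higher and 10 lower, segments 9 and 17 being called at 0.55 and 0.41. That fit leaves out the most abundant segment itself, so segment 3 was not tested in it. The share called over all its segments is not given here. With the full chromosome total the higher ones were segment 10, with a log2 fold change of 0.57, and segment 3, with 0.48, whose call was lost without RNase-dead replicate 1 (FDR 0.0527 in edgeR). Segment 1 took 0.413 ± 0.0751% of X reads in PAZ-deletion and 4.45 ± 0.0190% in RNase-dead (n = 3, SD), or -3.43 ± 0.15 as a log2 fold change (SE; FDR 7.10e-10 in edgeR). Segment 7, not called in RPM, was at -0.54 in share, and segment 14 at -0.46. Without the most abundant segment in the chromosome total, both lost their call, at -0.26 (FDR 0.0891 in edgeR) and -0.18 (FDR 0.244 in edgeR), and segments 4 and 13 were at -0.45 and -0.32, against -0.73 and -0.60 with it. Segment 14 also lost its call without RNase-dead replicate 2 (FDR 0.0533 in edgeR).

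The miRNA genes annotated on X lie as follows, in order along the chromosome. Segment 1 holds mir-258.2, mir-258.1 and mir-800. Segment 2 holds mir-2221, mir-796, mir-4807, mir-4808, mir-4809, mir-2220, mir-4810.2, mir-4810.1, mir-1018, mir-4925, mir-4923.2, mir-4923.1 and mir-4921. Segment 3 holds mir-248, mir-8196.1, mir-73, mir-74, mir-75, mir-81, mir-82, mir-264 and mir-34. Segment 4 holds mir-359, mir-785, mir-249, mir-271 and mir-266. Segment 5 holds mir-247 and mir-797. Segment 6 holds mir-230, mir-791 and mir-360. Segment 7 holds mir-1022. Segment 8 holds mir-4811, mir-240, mir-786 and mir-8203. Segment 9 holds mir-784, mir-5553, mir-237, mir-788 and mir-799. Segment 10 holds mir-49. Segment 12 holds mir-251, mir-787, mir-254, mir-239.2 and mir-239.1. Segment 13 holds mir-233 and mir-62. Segment 14 holds mir-56, mir-55, F09A5.15, mir-54, mir-392, mir-5592.1, mir-5592.2, mir-793 and mir-47. Segment 15 holds mir-8196.2, let-7 and mir-1829.2. Segment 16 holds mir-1829.3, WBGene00189969, mir-4812 and mir-1829.1. Segment 17 holds mir-84, mir-2212 and mir-1819. Segment 18 holds mir-63 and mir-2217.2. Segment 11 holds none.

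The annotated genes of a segment followed its level only loosely. Across the 18 segments, the number of miRNA genes and the wild-type level had a Spearman correlation of 0.61, and the number of tRNA genes and that level 0.44. With the log2 fold change of PAZ-deletion against wild type the values were 0.22 for miRNA genes and 0.37 for tRNA genes. They were 0.18 for piRNA genes, -0.17 for protein-coding genes and -0.16 for pseudogenes. All segments come from the same libraries, so these are descriptions across segments. The 6 segments higher in PAZ-deletion held 35 of the 74 miRNA genes and 134 of the 276 tRNA genes. The 8 lower ones held 21 and 86, and the 4 not called 18 and 56. In that order, the median per segment was 4.5, 3 and 3.5 miRNA genes and 16, 11.5 and 12 tRNA genes. Among the higher segments, segment 2 alone held 13 miRNA genes and segment 9 alone 51 tRNA genes. Segment 10 had the highest fold change with 1 miRNA gene, and segment 14 had 9 miRNA genes and was not called. The 162 piRNA genes were spread over all segments, with 4 to 16 in each.

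**Figure D5:**
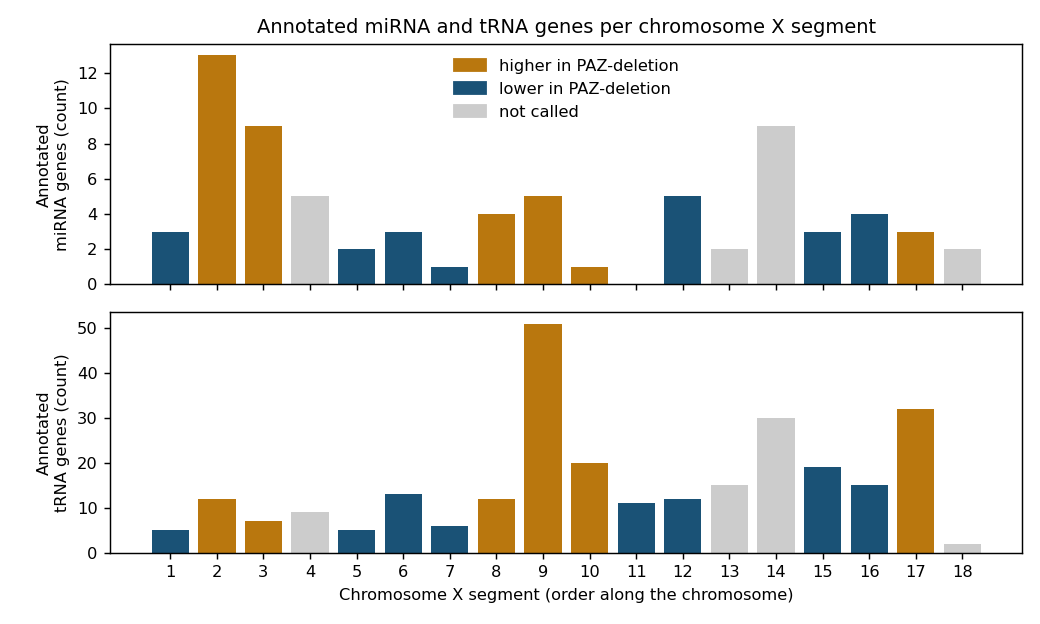
Number of annotated miRNA genes (top) and tRNA genes (bottom) that start in each chromosome X segment (x axis), coloured by the call in RPM for PAZ-deletion against wild type. Segment 2 has 13 miRNA genes and segment 9 has 51 tRNA genes, and segments of all 3 colours hold genes of both kinds.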

How the data were processed

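The authors deposited raw read counts for 104 genome segments and 9 libraries, and raw counts of sense reads on piRNAdb entries, per the file headers. The first line of the segment table is a total, equal to the sum of each column, and entered no test. Tools named per the submitters' processing notes were FastQC 0.12.0 and cutadapt 3.7. Not given in the sources used here were the aligner, the build, and how reads matching several places were counted, so reads of repeated genes may be split between segments. Per the labels' protocols, small RNA was treated with a pyrophosphatase so that RNAs with a triphosphate could be cloned. The growth text names both sexes, and hermaphrodite was taken from the titles.

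Genotypes and replicate numbers came from the titles. RPM are reads per 1000000 genome-mapped reads, the scaling that the series states. Segments were tested with edgeR 4.0.16 (glmQLFit and glmQLFTest, R 4.3.3) on all 9 libraries in 1 fit, with library sizes of genome-mapped reads, no count filter, and a Benjamini-Hochberg FDR over 104 segments. Shares were tested with the log total of the own chromosome as offset over 103 segments, without mitochondrial DNA. The SE given for a fitted change is its size over the square root of F, and therefore depends on pooled spread. Totals were compared by exact two-sided permutation tests on log2 RPM (scipy 1.17.1), with 1680 assignments for the F test. Alternatives included DESeq2 1.42.0, TMM factors, other denominators, a replicate block and leaving out each library. On 20 simulated tables per comparison, the RPM fit recovered 1.5-fold changes in 70.5% of cases when PAZ-deletion was set against wild type (false calls 3.69%), in 76.5% when RNase-dead was (false calls 6.37%) and in 75% between the mutants (false calls 4.645%). For changes of 2-fold these shares were 99%, 100% and 99.5%. The simulated tables drew each segment independently and changed 20 of 104 segments, as often up as down. In the data 45.2% of segments were called for PAZ-deletion against wild type and 67.3% against RNase-dead, more of them lower than higher. Deviations shared by many segments of a library were not simulated. The rates may therefore not carry over to these data.

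Values in every library were given for the 4 segments highest in mean RPM and for the 2 highest and 2 lowest log2 fold changes of each comparison, and for further segments chosen after their values were seen. The segments, lists and tests were chosen with earlier results of these data known. Genes were assigned to the segment that holds their start, and miRNA symbols were taken from the RefSeq gene table of the same assembly, matched by position for 73 of 74 genes. No sequence is shown because no sequence table was used here.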

Additional observations from a re-analysis of the deposited data

How the results depend on the processing

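The choice of scaling moved the median log2 fold change of all 104 segments, from -0.13 to 0.00 (TMM) and -0.01 (DESeq2 median-ratio) for PAZ-deletion against wild type, from 0.29 to 0.02 with either for RNase-dead against wild type, and from -0.40 to -0.00 and -0.01 for PAZ-deletion against RNase-dead. Segments 1, 5, 12, 16 and 10 kept their call and direction in RPM in PAZ-deletion against either genotype under all 16 alternatives. Of these, the minimum of 1000 reads per segment removed 0 segments and repeated the main fit. Leaving out a library of the genotype not compared bore on little but the pooled spread. Without RNase-dead replicate 1, segment 1 stayed at -2.70 against wild type. Against wild type segment 1 ranged from -2.84 to -2.57, and segment 10 from 1.05 to 1.38. Over all alternatives, those uninformative ones included, 816 of 864 values of called segments kept direction and call, 48 lost the call and 0 reversed. X segments called ranged from 12 to 15 (PAZ-deletion against wild type) and 13 to 14 (against RNase-dead) when single libraries were left out, and in share from 13 to 16 and 13 to 15.

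For RNase-dead against wild type the lone call became 0 with TMM factors, 2 with DESeq2 median-ratio factors, 0 with the replicate block, and 0 to 5 without single libraries. Over all 104 segments its 16 calls became 0 with TMM factors, 40 with DESeq2 scaled to genome-mapped reads, 28 with these genotypes alone and 2 with the replicate block. In share it became 0 without the most abundant segment of each chromosome, and 0 to 2 without single libraries. The X total difference of these genotypes was -0.090 without the last segment of chromosome I in the denominator, and -0.10 to 0.10 without single libraries, negative without wild type replicate 2. For PAZ-deletion it was 0.40 against wild type and 0.49 against RNase-dead with that denominator. The F statistic of the X total was 9.37, and 1.42 without segment 3. The causes were not tested.

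The values that changed sign had not been called, but for PAZ-deletion against RNase-dead segment 13 was called higher by TMM and by DESeq2 median-ratio scaling, and segment 7 by the DESeq2 one. With TMM and with DESeq2 median-ratio factors, PAZ-deletion against wild type was 0.044 and 0.037 in segment 13 and 0.047 and 0.039 in segment 14; RNase-dead against wild type was -0.11 and -0.11 in segment 10 and -0.039 and -0.040 in segment 17; PAZ-deletion against RNase-dead was 0.15 and 0.15 in segment 4, 0.35 and 0.35 in segment 7 and 0.27 and 0.26 in segment 13. Without single libraries, PAZ-deletion against wild type ranged from -0.18 to 0.0027 in segment 13 and -0.26 to 0.057 in segment 14, RNase-dead against wild type from -0.12 to 0.035 in segment 3 and -0.35 to 0.042 in segment 9, and PAZ-deletion against RNase-dead from -0.20 to 0.036 in segment 7 and -0.14 to 0.18 in segment 14. In segment 14 it was -0.0080 with the replicate block. Same-numbered libraries correlated at -0.56 to 0.14 in their deviations from the group means, so the numbers were not taken as pairs. The block gave 13, 0 and 14 X segments called in RPM, in the order of comparisons above.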
